A study of Mus musculus with 54 samples.

Results

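The libraries labelled ZT6 were compared with those labelled ZT10, which are the middle and the later part of the light phase in a study of the mouse suprachiasmatic nucleus (SCN) over a light/dark cycle. Zeitgeber time (ZT) counts hours from lights on. The members were the 6 RNA pools that carry these labels, 3 per timepoint, of 18 pools over 6 timepoints, and they were described across the genes of the count table. Both groups were male C3H/HeH mice of 10 to 12 weeks, labelled WT (wild type). They were housed singly for 7 days before tissue harvesting under 150 lux of light, and the labels name no treatment for either group. The SCN was cut out by laser capture, and the captured tissue of several mice was pooled into each replicate. RNA of each pool was amplified before library preparation, with 3 sequencing lanes per pool. Of the 30031 genes in the table, 20469 had a read in at least 1 of the 6 pools, and the 18941 genes with reads in more than 6 of the 18 pools were tested. A p-value of the main test measures the spread between pools, estimated over all 6 timepoints in 1 fit, not between single mice. That spread is therefore not the spread of the ZT6 and ZT10 pools alone. In such tissue, fewer cells of a type and less RNA per cell cannot be told apart.

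The SCN is the central circadian pacemaker of mammals. In its neurons, CLOCK and BMAL1 (encoded by *Arntl*) activate genes with E-box elements, among them the *Per* and *Cry* genes, whose proteins repress that activation later in the cycle. Light reaches the SCN through the retina and acts on calcium and cAMP signalling, CREB-dependent transcription and immediate early genes, and SCN neurons fire faster by day than by night. The SCN held high levels of its own peptides at both timepoints: *Vip*, a peptide of the ventral SCN, stood at 2756 ± 448 CPM at ZT6 and 2618 ± 305 CPM at ZT10 (CPM, read counts scaled to the size of each library, mean ± SD, n = 3 pools in each group here and below), and *Six3* and *Lhx1*, transcription factors of SCN development, were detected in all 6 pools.

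The 6 pools held between 19456681 and 24623369 counted reads. ZT6 replicate C stood apart from the other pools. It had the fewest tested genes with reads, 15375 against 16468 and 16228 in the other ZT6 pools and 16572 to 17413 in the ZT10 pools, and its first principal component score was 76.8 where the other pools lay between -19.4 and -9.12. It correlated with the other 5 pools at r = 0.904 to 0.909 (Pearson, log2 CPM across genes, which are not independent replicates), while the 3 ZT10 pools correlated with each other at 0.944 to 0.956. ZT6 pools A and B correlated with each other at 0.934 and with the ZT10 pools at 0.936 to 0.947, so the ZT6 pools were no nearer to each other than to ZT10. The ZT6 pools had fewer genes with reads than the ZT10 pools without overlap (exact permutation test, two-sided p = 0.1, the smallest that 3 against 3 pools allow). In a second deposited table the same pools held other read numbers, with a median log2 ratio per pool from -0.13 to -0.11 to the counts used here. That ratio was 0 in the 12 pools of the other timepoints, so levels set beside those timepoints rest on the count table, and which table the study used for these 6 pools is not settled here. Values without ZT6 replicate C are given beside many of the results that move with it, but not beside all.

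**Figure D1:**
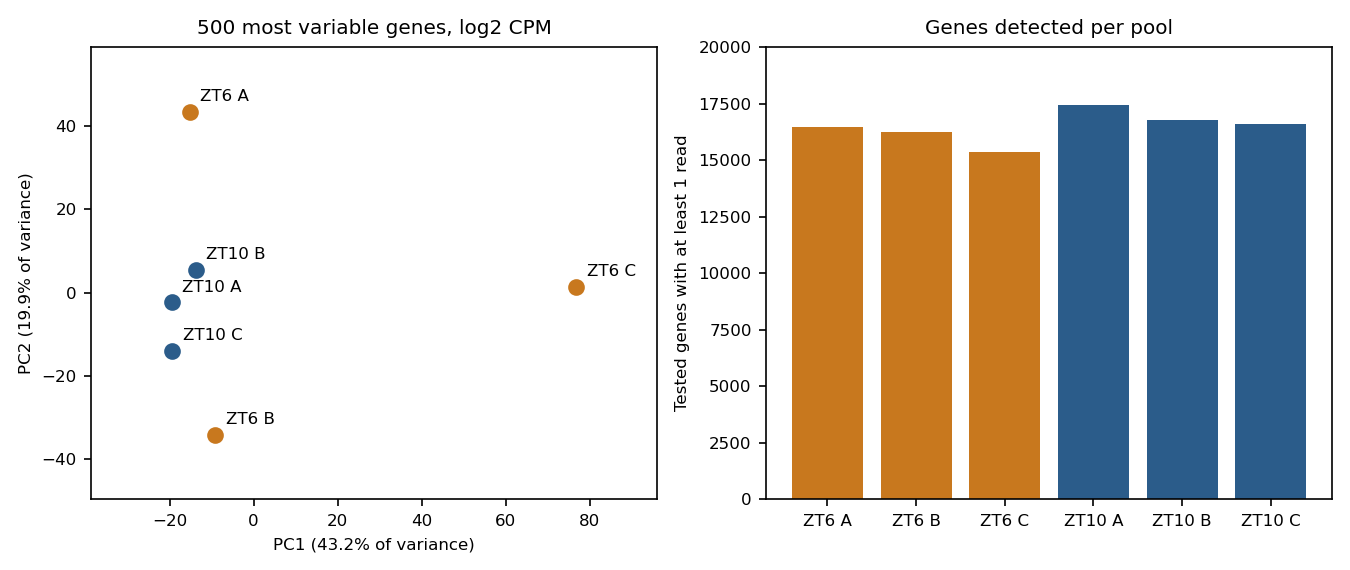
The left panel plots the first 2 principal components of log2 CPM over the 500 most variable genes among the 6 pools, and the right panel the number of tested genes with at least 1 read in each pool. Orange marks ZT6 and blue ZT10; ZT6 replicate C lies far from the other 5 pools on the first component (43.2% of variance) and has the fewest genes with reads, 15375.

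Few genes differed between the middle and the later part of the day beyond the spread of the pools, with 9 in edgeR and 248 in DESeq2. The number in edgeR ran from 2 to 50 when single pools were left out. In edgeR's quasi-likelihood test, 9 of 18941 genes passed q < 0.05 (Benjamini-Hochberg), which is 0.0475% of the genes tested. Of these, 4 were higher at ZT6 (0.0211%): *Fosl2*, *Rgs16*, *Sik1* and *Rasl11b*. The other 5 were higher at ZT10 (0.0264%): *AU021092*, *Htr1a*, *Dapp1*, *Tmco4* and *Smpdl3b*. For these 9 genes the values of the timepoints did not overlap. They differed in level: the genes higher at ZT6 had at least 143 reads in every pool of both timepoints, while each gene higher at ZT10 had at most 2 reads over the 3 ZT6 pools together.

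*Rgs16* (ENSMUSG00000026475, chr1:153740349-153745468, GRCm38, forward strand) encodes a GTPase-activating protein that shortens signalling through inhibitory G proteins and is a known rhythmic gene of SCN neurons. Its level was 287, 362 and 360 CPM in ZT6 pools A, B and C and 140, 104 and 143 CPM in the ZT10 pools. The lowest ZT6 value was 2 times the highest ZT10 value. The fitted log2 difference was 1.38 ± 0.22 (SE), a 2.61-fold higher level at ZT6 (q = 0.0228, edgeR). The means of the other timepoints were lower than at ZT6, with 198 CPM at ZT2 and 54.9 to 80.1 CPM over the night. The gene overlaps *Gm28513* on the opposite strand over 236 bases, and reads of these 2 genes cannot be told apart there, since no source used here says that strand was kept.

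*Sik1* (ENSMUSG00000024042, chr17:31844250-31855804, reverse strand) encodes salt-inducible kinase 1, which acts against CREB coactivators of the CRTC family and restrains the response of the clock to light. It stood at 53.7, 67.8 and 112 CPM in the ZT6 pools and at 27.5, 17.9 and 20.1 CPM in the ZT10 pools. The highest ZT6 value came from replicate C, and the lowest ZT6 value was still above the highest ZT10 value. The level was 3.57-fold higher at ZT6 (log2 difference 1.83 ± 0.29, q = 0.0228, edgeR). Its means over the night (ZT14 to ZT22) lay between 9.44 and 11.3 CPM, below both daytime values given here.

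*Fosl2* (ENSMUSG00000029135, chr5:32135801-32157842, forward strand) encodes FRA2, a FOS family subunit of the AP-1 transcription factor. It stood at 40.1, 38.7 and 23.9 CPM in the ZT6 pools and at 9.61, 6.21 and 9.91 CPM in the ZT10 pools. It had the highest fold of the 4 genes, 3.99-fold (log2 difference 2.00 ± 0.30, q = 0.02, edgeR). Its peak of the series was not at ZT6: the ZT2 pools held between 56.0 and 88.7 CPM.

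*Rasl11b* (ENSMUSG00000049907, chr5:74195286-74199481, forward strand) encodes a small GTPase of the RAS superfamily. It stood at 187, 231 and 251 CPM in the ZT6 pools and at 80.5, 117 and 68.1 CPM in the ZT10 pools. The level was 2.52-fold higher at ZT6 (log2 difference 1.33 ± 0.23, q = 0.0402, edgeR). Like *Rgs16* and *Sik1*, it had its highest mean of the 6 timepoints at ZT6, 223 ± 32.7 CPM, with 142 CPM at ZT2 and between 23.0 and 42.8 CPM over the night. In the paper's principal component plot, libraries separate by sequencing batch as well as by timepoint. The labels name no batch for the pools, so time and batch cannot be told apart in these wider comparisons.

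These calls were near the threshold. When each of the 18 pools was left out in turn, *Fosl2* passed in 14 of 18 fits, *Rgs16* and *Sik1* in 13 and *Rasl11b* in 7. Of these 4 genes *Fosl2* alone passed without ZT6 replicate C, where *Rgs16* kept a log2 difference of 1.33, *Sik1* 1.48 and *Rasl11b* 1.24. Without ZT6 replicate B none of the 4 passed, and *Fosl2* also missed the threshold without any one of ZT10 replicates A, B and C. DESeq2 gave all 4 genes q-values between 6.96e-08 and 1.06e-05. In edgeR none of the 9 genes passed with only the 6 pools in the fit, where 0 genes were called and 1225 had an unadjusted p under 0.05, and none of these 4 passed with the replicate letter as a block.

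The upstream sequence of the genes higher at ZT6 is shown because CREB, E-box and D-box elements are the known routes by which light and the clock act on transcription. RefSeq promoter windows (GRCm38.p6, 250 bases before to 50 after the start site) were found for 7 of the 9 genes, *Sik1* and *AU021092* having none in the table used. The letters searched on both strands were those of the cAMP response element, TGACGTCA, and of its shorter form, TGACG, which the longer form contains. The E-box was searched as CACGTG, and the D-box in the forms TTATGTAA and TTACGTAA. Over all 32851 promoter windows, 1.79% held TGACGTCA, 20.8% held TGACG, 7.15% held CACGTG, 0.938% TTATGTAA and 0.119% TTACGTAA. None of these letters was in the windows of *Fosl2*, *Rgs16* or *Rasl11b*, which says nothing about sequence outside the windows. Of the 7 genes, 1 held a match, *Smpdl3b*, with CACGTG starting at base 43 after the start site. The 250 bases before the start sites follow, all in lower case, at chr5:32136222-32136471 (+ strand), chr1:153740103-153740352 (+ strand) and chr5:74195076-74195325 (+ strand).
Fosl2: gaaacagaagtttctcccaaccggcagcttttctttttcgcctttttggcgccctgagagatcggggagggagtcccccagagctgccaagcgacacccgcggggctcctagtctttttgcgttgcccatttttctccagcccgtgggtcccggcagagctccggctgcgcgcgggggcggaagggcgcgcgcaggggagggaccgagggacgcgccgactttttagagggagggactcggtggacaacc
Rgs16: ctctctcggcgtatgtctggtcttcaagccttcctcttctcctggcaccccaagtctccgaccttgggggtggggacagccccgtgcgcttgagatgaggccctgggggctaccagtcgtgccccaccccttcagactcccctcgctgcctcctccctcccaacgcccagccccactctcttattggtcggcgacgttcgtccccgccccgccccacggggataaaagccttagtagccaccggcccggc
Rasl11b: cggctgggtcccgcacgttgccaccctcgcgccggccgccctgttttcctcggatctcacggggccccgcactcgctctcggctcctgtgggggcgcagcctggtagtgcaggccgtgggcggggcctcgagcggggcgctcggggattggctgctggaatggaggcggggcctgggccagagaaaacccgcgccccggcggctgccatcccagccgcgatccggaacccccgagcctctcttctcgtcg

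The 5 genes higher at ZT10 were almost without reads at ZT6. *Htr1a* (ENSMUSG00000021721, chr13:105443639-105448122, forward strand) encodes the serotonin 1A receptor, an inhibitory receptor of the serotonergic input to the SCN. Its ZT6 pools held 0, 2 and 0 reads, and its ZT10 pools 45, 54 and 73 reads, which is 2.18, 2.34 and 3.45 CPM. The ratio of ZT10 to ZT6 was 86.6, with an exact 95% counting interval from 23.6 to 721 (q = 0.0159, edgeR). *AU021092* (ENSMUSG00000051669, chr16:5211823-5222299, reverse strand) had 0, 0 and 1 reads at ZT6 and 107, 140 and 55 reads at ZT10. Its ratio was 304, with an interval from 54.2 to 12052 (q = 0.00817, edgeR). These intervals cover counting error only.

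The other 3 genes had no read in any ZT6 pool, so that only a lower bound of the fold can be given, against a floor of 3 reads over the group (0.0459 CPM). *Dapp1* (ENSMUSG00000028159, chr3:137931007-137981545, reverse strand), which encodes a phosphoinositide-binding adaptor protein, stood at 0.922, 0.651 and 2.93 CPM in the ZT10 pools and was at least 32.2-fold lower at ZT6 (q = 0.02, edgeR). *Tmco4* (ENSMUSG00000041143, chr4:138972888-139059171, forward strand), a transmembrane protein gene, stood at 0.922, 5.29 and 3.73 CPM at ZT10 and was at least 73.9-fold lower at ZT6 (q = 0.0272). *Smpdl3b* (ENSMUSG00000028885, chr4:132732966-132757252, reverse strand), which encodes an enzyme of the acid sphingomyelinase family, stood at 1.21, 2.82 and 2.74 CPM at ZT10 and was at least 49.7-fold lower at ZT6 (q = 0.0402). The spread within ZT10 was wide for *Tmco4*, whose pools held 19, 122 and 79 reads.

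Each of these 5 genes had its lowest mean of the 6 timepoints at ZT6, and each had reads in all 15 pools of the other timepoints. *Htr1a* had means between 4.76 CPM (ZT2) and 6.61 CPM (ZT18) at the other 4 timepoints, all above its 2.66 ± 0.69 CPM at ZT10. *AU021092* had means between 4.19 and 7.21 CPM at the other 4 timepoints, a range that holds its ZT10 mean of 4.62 ± 1.81 CPM. Among tested genes, 1196 had no read in any ZT6 pool, against 599 at ZT10 and between 176 and 400 at the other timepoints. Of genes with at least 0.5 CPM in every pool of one timepoint, 19 had no read at ZT6 and 2 none at ZT10. How far the lower number of detected genes at ZT6 enters these 5 calls was not tested. When each pool was left out in turn, *AU021092* passed in 18 of 18 fits, *Htr1a* in 17, *Dapp1* in 16, *Tmco4* in 11 and *Smpdl3b* in 7. Of the 5 genes *AU021092* alone passed without ZT6 replicate C, and *Smpdl3b* did not pass in the second deposited table (q = 0.0666, edgeR). With at least 10 reads required in each of the 6 pools, none of the 5 could be tested and the 4 genes higher at ZT6 were the calls that remained, of 12400 genes.

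**Figure D2:**
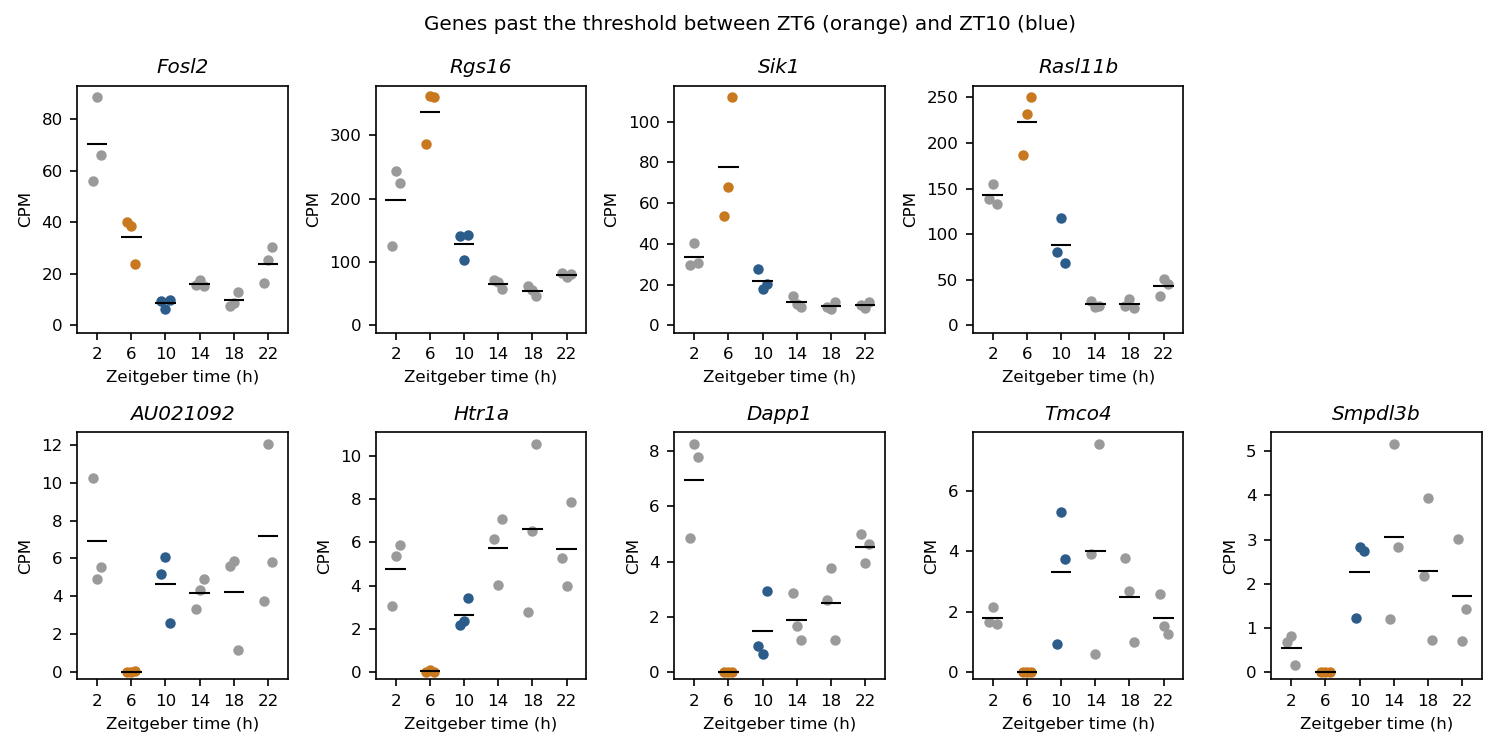
CPM in each pool (points) and the mean of 3 pools (bars) at the 6 timepoints for the 9 genes past the threshold, with ZT6 in orange, ZT10 in blue and the other timepoints in grey. The upper row holds the genes higher at ZT6, of which *Fosl2* is highest at ZT2, and the lower row the genes higher at ZT10, which are at or near 0 at ZT6.

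Most differences between the timepoints were small. The median log2 difference over all 18941 genes was -0.03. Its median size was 1.47 among the 5029 genes under 1 CPM, 0.53 among the 4547 genes from 1 to 10 CPM, 0.25 among the 7318 genes from 10 to 100 CPM and 0.21 among the 2047 genes at 100 CPM or more. Beyond a log2 difference of 1 in either direction lay 3046 genes of the lowest class and 10 of the highest. At an unadjusted p under 0.05, 797 genes were higher at ZT6 (4.21%) and 1245 higher at ZT10 (6.57%). These counts were 504 and 911 without ZT6 replicate C. The genes under 1 CPM had 201 against 599 of these, where the split was near even in those from 10 to 100 CPM, with 338 against 349, or at 100 CPM or more, with 109 against 100. All 3 ZT6 pools lay above all ZT10 pools in 1042 genes (5.5%), and below them in 1302 genes (6.87%). With DESeq2's size factors in place of edgeR's TMM scaling this order turned, to 1217 against 1138.

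**Figure D3:**
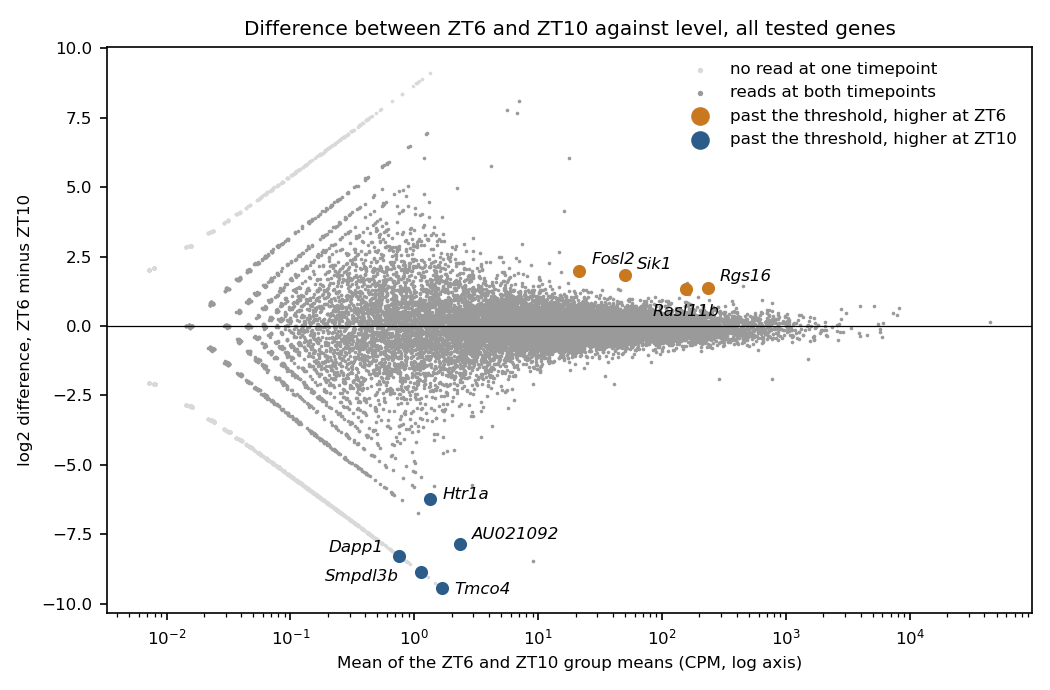
Fitted log2 difference between ZT6 and ZT10 (vertical) against the mean level in CPM on a log axis (horizontal) for the tested genes with reads at either timepoint. The 4 genes higher at ZT6 (orange) lie where most differences were small. *Prok2*, at a level like that of *Rasl11b*, had a higher value (1.55 against 1.33) without passing. The 5 genes higher at ZT10 (blue) lie at the low end, where a fitted value for a gene with no read at one timepoint (pale grey line) depends on the prior count and is not a fold.

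At an unadjusted p under 0.05, 614 genes had pools that did not overlap and a mean of at least 10 CPM at the higher timepoint. Of these, 316 were higher at ZT6 and 298 higher at ZT10. Among those that missed q < 0.05, some of the highest log2 differences were those of *Snhg9*, *Aldh1l2*, *Gm12843*, *Zfp759*, *Prok2*, *Csmd2* and *Cdh20*. Their values ran from 1.45 to 1.93, with q from 0.234 to 0.423 (edgeR). Without ZT6 replicate C they ran from 0.91 for *Snhg9* to 1.87 for *Prok2*, with 0.95 for *Zfp759* and 0.94 for *Cdh20*. *Aldh1l2*, which encodes a mitochondrial enzyme of folate metabolism, stood at 5.03, 12.6 and 14.7 CPM against 3.35, 2.04 and 3.30 CPM, and DESeq2 gave it q = 0.00497.

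The 8 with the lowest log2 differences were *Neurod6*, *Gpr34*, *Mgp*, *Fdxr*, *Ptgds*, *Rasd1*, *Kcnab3* and *Cntrl*, with values from -2.95 to -1.67 and q from 0.157 to 0.442 (edgeR). *Ptgds*, the prostaglandin D synthase of meninges and glia, stood at 256, 537 and 170 CPM at ZT6 and at 1420, 1651 and 587 CPM at ZT10. *Mgp*, the matrix Gla protein of vessel walls and meninges, stood at 12.6, 22.5 and 11.6 CPM against 98.8, 68.0 and 31.1 CPM. All 6 markers of meningeal cells also had log2 differences below 0, with a median of -0.81, and their summed level was 62.0 to 82.7 CPM at ZT6 and 94.7 to 152 CPM at ZT10. The pools overlapped for each single marker of the 6, whose values ran from -1.28 to -0.02. *Gpr34*, a lysophosphatidylserine receptor gene of microglia, stood at 2.30, 2.84 and 0 CPM against 10.1, 13.6 and 9.39 CPM, while the summed microglial markers overlapped, at 130 to 336 CPM and 257 to 286 CPM. *Rasd1* is a glucocorticoid-inducible RAS-like gene that shapes the response of the clock to light. It stood at 135, 131 and 98.6 CPM at ZT6 and at 489, 522 and 366 CPM at ZT10, a 3.78-fold lower level at ZT6 that missed the threshold (q = 0.351 in edgeR, 0.155 in DESeq2). DESeq2 with these 6 pools alone called it (q = 9.19e-17). That fit also lost calls of DESeq2 with 18 pools, such as *Aldh1l2* (q = 0.129). *Neurod6*, a transcription factor gene of cortical and hippocampal neurons, stood at 1.69, 2.13 and 0.0473 CPM against 9.75, 4.25 and 16.1 CPM, and other markers of telencephalic neurons lay on the same side, as given with the cell type markers.

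No gene of the clock itself passed between ZT6 and ZT10. Of 24 core clock and clock output factors, 0 passed q < 0.05 in edgeR (smallest q = 0.0968), 6 were higher and 1 lower at ZT6 at an unadjusted p under 0.05 (4.21% and 6.57% over all genes), and DESeq2 called 3 higher at ZT6 and 0 lower. All ZT6 pools lay above all ZT10 pools for 6 genes and below them for 2 (5.5% and 6.87% over all genes). The median log2 difference was 0.21, beside -0.03 over all genes, and 0.12 without ZT6 replicate C, where 4 were higher and 1 lower at an unadjusted p under 0.05.

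*Bhlhe41*, which encodes the repressor DEC2, came nearest to the threshold. It stood at 628, 662 and 701 CPM at ZT6 and at 211, 150 and 369 CPM at ZT10 (log2 difference 1.45 ± 0.28, q = 0.0968 in edgeR, 0.000307 in DESeq2). The ZT6 pools agreed closely and the ZT10 pools did not. It overlaps the gene model *Gm43909* on the opposite strand over 1280 bases, where reads cannot be told apart. *Dbp*, a D-box activator and output gene of the clock, stood at 100, 110 and 104 CPM against 60.6, 60.8 and 48.1 CPM (0.89 ± 0.24, q = 0.277), and it overlaps *Sphk2* over 539 bases. *Rorb*, a nuclear receptor gene expressed in the SCN and retina, stood at 436, 558 and 447 CPM against 295, 184 and 293 CPM (0.90 ± 0.23, q = 0.234). DESeq2 called these 3 genes and none of the other 21.

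None of the period genes passed. *Per1* stood at 50.6, 57.4 and 102 CPM at ZT6 and at 33.5, 31.6 and 44.6 CPM at ZT10 (0.94 ± 0.29, q = 0.332), with the highest value in ZT6 replicate C. *Per2* stood at 92.6, 84.8 and 192 CPM against 96.7, 105 and 116 CPM (0.22 ± 0.28), and its log2 difference was -0.26 without that pool. *Per3* overlapped too, at 42.2 to 126 CPM and 38.4 to 67.9 CPM (0.62 ± 0.36). The cryptochrome genes *Cry1* and *Cry2*, the repressor partners of the PER proteins, had log2 differences of -0.02 ± 0.25 and -0.18 ± 0.30. *Arntl*, the gene of BMAL1, was the member with the lowest value: 21.9, 24.3 and 22.2 CPM at ZT6 and 42.0, 31.8 and 38.9 CPM at ZT10 (-0.72 ± 0.26, q = 0.38). Its partner *Clock* had a log2 difference of 0.08 ± 0.25. Among the nuclear receptors that repress *Arntl*, *Nr1d2* stood at 111, 122 and 202 CPM against 82.2, 71.3 and 83.0 CPM (0.88 ± 0.31, q = 0.377), and *Nr1d1* at 254, 219 and 111 CPM against 118, 106 and 101 CPM, where the pools overlapped. The other 12 members had log2 differences from -0.47 for the casein kinase gene *Csnk1d* to 0.55 for the repressor gene *Nfil3*.

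**Figure D4:**
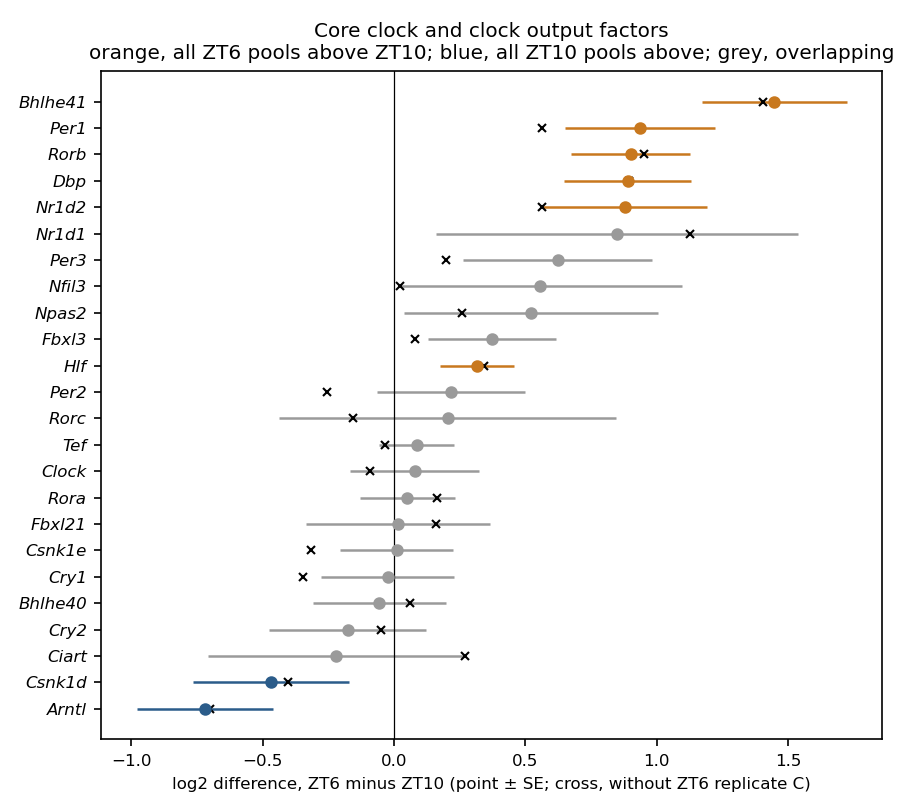
Log2 difference between ZT6 and ZT10 (point ± SE, edgeR, n = 3 pools per timepoint) for 24 core clock and clock output factors. Orange points are genes whose ZT6 pools all lay above the ZT10 pools, blue points the reverse and grey points overlapping genes; crosses are the values without ZT6 replicate C, which move *Per1* and *Nr1d2* to 0.56 and leave *Bhlhe41* at 1.40.

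E-box letters in promoters of this group are shown as context. Of the 19 clock genes with a RefSeq promoter window, 5 held CACGTG: *Bhlhe41*, *Per1*, *Tef*, *Ciart* and *Cry1*. The log2 differences of these 5 ran from -0.22 for *Ciart* to 1.45 for *Bhlhe41*, so genes with these letters lay on both sides of 0. Without ZT6 replicate C *Ciart* turned to 0.27, while *Cry1* lay at -0.34 and *Tef* at -0.03. *Prok2*, an SCN output peptide gene described next, held the same letters. The 3 windows below, chosen after the values were seen as genes of this kind that were higher at ZT6, carry CACGTG in capitals with up to 40 bases on each side, at chr6:145865528-145865613 (- strand), chr6:99726482-99726567 (- strand) and chr11:69098743-69098828 (+ strand).
Bhlhe41: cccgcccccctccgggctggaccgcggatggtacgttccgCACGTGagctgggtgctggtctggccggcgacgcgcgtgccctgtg
Prok2: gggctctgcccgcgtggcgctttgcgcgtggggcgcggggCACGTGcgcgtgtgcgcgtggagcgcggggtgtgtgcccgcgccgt
Per1: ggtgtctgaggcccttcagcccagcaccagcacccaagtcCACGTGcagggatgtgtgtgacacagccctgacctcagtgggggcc

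Among 20 SCN neuropeptide and granin genes, 0 passed in edgeR (smallest q = 0.311), 1 was higher and 1 lower at ZT6 at an unadjusted p under 0.05 (4.21% and 6.57% over all genes), and DESeq2 called 1 higher at ZT6. That gene was *Prok2*, whose peptide prokineticin 2 is released rhythmically by the SCN. It stood at 303, 286 and 122 CPM at ZT6 and at 79.3, 75.9 and 87.1 CPM at ZT10 (log2 difference 1.55 ± 0.45, q = 0.311 in edgeR, 0.0342 in DESeq2). ZT6 replicate C lay between the other ZT6 pools and ZT10. Its mean was 128 CPM at ZT2 and between 2.26 and 8.42 CPM at the 3 night timepoints.

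*Avp*, the vasopressin gene of the dorsal SCN, stood at 478, 455 and 430 CPM at ZT6 and at 276, 278 and 410 CPM at ZT10 (0.50 ± 0.30, q = 0.556). *Grp*, a peptide gene of light-responsive ventral neurons, stood at 394, 380 and 356 CPM against 294, 350 and 239 CPM (0.35 ± 0.27, q = 0.658). For both, and for *Vgf*, all ZT6 pools lay above all ZT10 pools by a small margin. *Vip* did not separate, with 2341, 2697 and 3231 CPM against 2693, 2880 and 2283 CPM (0.07 ± 0.25). *Nms*, the neuromedin S gene of pacemaker neurons, had -0.34 ± 0.19 and *Sst*, the somatostatin gene, -0.32 ± 0.79. *Npy* had the lowest value of the list, -1.05 ± 0.45, with 64.9, 59.3 and 25.2 CPM at ZT6 and 54.9, 121 and 134 CPM at ZT10. *Chga*, the chromogranin A gene, stood at 449, 462 and 350 CPM against 722, 791 and 464 CPM (-0.65 ± 0.32, q = 0.472). The other members, among them the peptide genes *Tac1* and *Gal*, overlapped between the timepoints.

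Among a list of 22 receptors of SCN peptides and inputs, which does not hold *Htr1a*, 0 passed in either tool, and 1 was higher and 1 lower at an unadjusted p under 0.05 (4.21% and 6.57% over all genes). *Mtnr1a*, the melatonin MT1 receptor gene, stood at 2.04, 3.41 and 0 CPM at ZT6 and at 7.57, 5.29 and 5.80 CPM at ZT10 (-1.77 ± 0.89, q = 0.479). *Cckar*, a cholecystokinin receptor gene, stood at 5.60, 1.71 and 2.84 CPM against 9.41, 8.16 and 6.42 CPM, and *Galr1*, a galanin receptor gene, at 3.12, 3.79 and 1.23 CPM against 0.582, 0 and 0.378 CPM. In the whole list all ZT6 pools lay above all ZT10 pools for 1 gene and below for 2 (5.5% and 6.87% over all genes), which were these low receptors. *Npy2r* had the smallest q of the list (0.365, edgeR), with 2 reads over the ZT6 pools and 25 over the ZT10 pools, which overlapped. *Vipr2*, the VIP receptor gene of the SCN, overlapped at 185 to 253 CPM and 173 to 190 CPM.

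Among activity-regulated genes *Fosl2* and *Sik1* passed, both higher at ZT6. Of 27 immediate early transcription factors, 1 rose at ZT6 over ZT10 (*Fosl2*) and 0 fell, 4 were higher and 3 lower at an unadjusted p under 0.05 (4.21% and 6.57% over all genes), and all ZT6 pools lay above all ZT10 pools for 6 and below for 1 (5.5% and 6.87% over all genes). The median log2 difference was 0.38. It was 0.14 without ZT6 replicate C, with 1 higher and 2 lower at an unadjusted p under 0.05. *Nr4a1*, an orphan nuclear receptor gene induced by calcium and cAMP, stood at 18.7, 21.1 and 26.6 CPM against 9.32, 10.3 and 10.6 CPM (1.14 ± 0.43, q = 0.399). The zinc finger genes *Egr2* and *Egr3* were without reads in the ZT6 pools and had 30 and 19 reads over the ZT10 pools, so they were at least 10.1-fold and 6.38-fold lower at ZT6 (q = 0.351 and 0.344). *Egr2* stood at 0, 0.911 and 0.425 CPM in the ZT10 pools, so ZT10 replicate A held no read of it either. *Egr3* stood at 0.437, 0.0868 and 0.378 CPM there. DESeq2 called *Egr2* with 18 pools (q = 0.0439) but not with the 6 pools alone (q = 0.75). These 2 genes lay on the other side from *Fosl2* and *Nr4a1*.

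Of 11 CREB, CRTC and SIK genes, *Sik1* passed and 0 fell, with 2 higher and 0 lower at an unadjusted p under 0.05 (4.21% and 6.57% over all genes). *Sik3*, a kinase gene of the same family, stood at 124, 114 and 155 CPM against 91.0, 73.6 and 111 CPM (0.51 ± 0.22, q = 0.423). Of 16 MAP kinase phosphatase and feedback genes 0 passed in edgeR, with 1 higher and 1 lower at an unadjusted p under 0.05 (4.21% and 6.57% over all genes), and DESeq2 called none with 18 pools and *Dusp1* with the 6 pools alone (q = 0.0114). *Dusp1*, an early phosphatase gene of ERK, p38 and JNK, stood at 52.8, 45.8 and 54.3 CPM against 21.4, 30.03 and 23.0 CPM (1.04 ± 0.35, q = 0.359). *Dusp6*, a feedback phosphatase gene of ERK, lay the other way, at 6.94, 6.77 and 6.06 CPM against 9.27, 12.2 and 11.9 CPM (-0.75 ± 0.29, q = 0.399). Of 17 RGS genes *Rgs16* alone passed in edgeR, with 2 higher and 1 lower at an unadjusted p under 0.05 (4.21% and 6.57% over all genes), and DESeq2 also called *Rgs14* lower at ZT6 (2.99, 1.23 and 0.946 CPM against 2.77, 16.8 and 7.41 CPM). *Rgs8*, which acts on G protein signalling too, stood at 25.3, 19.04 and 18.6 CPM against 8.10, 14.7 and 10.7 CPM (0.91 ± 0.31, q = 0.365).

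Of 20 activity-regulated effector genes 0 passed in edgeR (smallest q = 0.114), with 0 higher and 4 lower at ZT6 at an unadjusted p under 0.05 (4.21% and 6.57% over all genes), and DESeq2 called 1 lower. The median log2 difference was -0.03, and -0.37 without ZT6 replicate C. *Ptgs2*, the inducible cyclooxygenase gene, had no read at ZT6 and 1.36, 0.825 and 1.60 CPM at ZT10, at least 27.2-fold lower at ZT6 (q = 0.114 in edgeR, 0.000237 in DESeq2). *Gadd45g*, a stress and activity response gene, overlapped, at 270, 182 and 103 CPM against 302, 390 and 266 CPM. *Rasd1*, given above, belongs to this list too.

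Ion channel genes that carry depolarising current lay above 0 more often than below it. Of 31 sodium, calcium, NALCN and HCN channel genes 0 passed in either tool, 5 were higher and 0 lower at an unadjusted p under 0.05 (4.21% and 6.57% over all genes), and all ZT6 pools lay above all ZT10 pools for 6 (5.5% over all genes) and below for 1. There were 25 above and 6 below 0 (8751 and 9911 over all genes), and the median log2 difference was 0.35. Without ZT6 replicate C the median was 0.16, with 2 higher and 0 lower at an unadjusted p under 0.05. *Unc80*, a subunit gene of the NALCN sodium leak channel, stood at 140, 173 and 304 CPM against 126, 94.7 and 127 CPM (0.83 ± 0.24, q = 0.311). *Cacna1a*, the P/Q-type calcium channel gene, stood at 23.7, 21.0 and 83.9 CPM against 22.0, 16.3 and 21.6 CPM. For both, replicate C was the high ZT6 pool. Without it the log2 difference of *Unc80* was 0.43, and that of *Cacna1a* fell from 1.10 to 0.16. *Cacnb2*, an auxiliary calcium channel subunit gene, separated, at 27.9, 30.1 and 43.9 CPM against 19.8, 12.5 and 16.8 CPM (1.06 ± 0.43, q = 0.409).

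The medians of potassium channels, glutamate and GABA receptors, and cyclases and phosphodiesterases lay nearer to 0, from -0.02 to 0.12. Of 35 potassium channel genes 0 passed in edgeR, with 1 higher and 3 lower at an unadjusted p under 0.05 (4.21% and 6.57% over all genes), or 1 and 1 without ZT6 replicate C. DESeq2 called 1 lower, *Kcnn3*, a calcium-activated channel gene at 1.34, 0.900 and 0.473 CPM against 2.14, 3.12 and 7.08 CPM. Of 30 glutamate and GABA receptor genes 0 passed in either tool, with 5 higher and 1 lower at an unadjusted p under 0.05 (4.21% and 6.57% over all genes), and with all ZT6 pools above for 7 and below for 2 (5.5% and 6.87% over all genes). There were 2 higher and 1 lower without ZT6 replicate C. *Grik3*, a kainate receptor gene, stood at 32.3, 44.4 and 34.2 CPM against 26.7, 18.7 and 22.3 CPM (0.71 ± 0.26), and *Gria3*, an AMPA receptor gene, at 13.4, 8.19 and 10.3 CPM against 14.1, 15.6 and 29.4 CPM (-0.89 ± 0.31). Of 24 adenylyl cyclase and phosphodiesterase genes 0 passed in either tool, with 3 higher and 1 lower at an unadjusted p under 0.05 (4.21% and 6.57% over all genes), and 0 in either direction without ZT6 replicate C. *Pde10a*, a phosphodiesterase gene for cAMP and cGMP, stood at 64.4, 62.8 and 103 CPM against 49.6, 26.8 and 39.3 CPM (0.99 ± 0.44, q = 0.437).

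Several lists of cell maintenance genes lay below 0, with few single members apart. Of 36 heat shock, ER chaperone and cold-inducible genes 0 passed in edgeR, with 1 higher and 6 lower at ZT6 at an unadjusted p under 0.05 (4.21% and 6.57% over all genes), and the median log2 difference was -0.29. Leaving out ZT6 replicate C left 0 higher and 3 lower, with a median of -0.20. *Pdia4*, an ER protein disulphide isomerase gene, stood at 57.1, 54.4 and 34.5 CPM against 83.5, 86.7 and 70.3 CPM (-0.72 ± 0.20, q = 0.287 in edgeR, 0.038 in DESeq2). *Manf*, an ER stress-induced secreted factor gene, stood at 203, 144 and 136 CPM against 236, 295 and 208 CPM (-0.61 ± 0.19, q = 0.351). In both genes all ZT6 pools lay below all ZT10 pools. Of 18 glucocorticoid receptor and response genes 0 passed in edgeR, with 2 higher and 4 lower at an unadjusted p under 0.05 (4.21% and 6.57% over all genes), and the median was -0.39. Leaving that pool out left 1 higher and 3 lower, with a median of -0.30. *Tsc22d3*, the gene of the glucocorticoid-induced leucine zipper protein, stood at 109, 65.6 and 85.9 CPM against 180, 157 and 143 CPM (-0.88 ± 0.22, q = 0.234 in edgeR, 0.0201 in DESeq2), and *Sgk1*, a kinase gene of the same response, at 15.0, 17.9 and 9.09 CPM against 28.002, 22.2 and 55.5 CPM (-1.33 ± 0.52, q = 0.406).

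Of 22 glycolysis genes 0 passed in either tool, 0 were higher and 2 lower at an unadjusted p under 0.05 (4.21% and 6.57% over all genes), and 19 had values below 0 (9911 of 18941 over all genes), with a median of -0.30. Without ZT6 replicate C the median was -0.15 and no member had such a p. *Ldha*, a lactate dehydrogenase gene, stood at 212, 149 and 105 CPM against 238, 196 and 210 CPM. Replicate C held the lowest ZT6 value of *Ldha*, *Eno1*, *Eno2* and *Ldhb*. Of 24 cholesterol synthesis genes 0 passed in either tool, with 2 higher and 5 lower at an unadjusted p under 0.05 (4.21% and 6.57% over all genes), and *Msmo1*, a sterol demethylation enzyme gene, stood at 123, 113 and 88.1 CPM against 167, 170 and 143 CPM (-0.57 ± 0.20). Without ZT6 replicate C none of the 24 had an unadjusted p under 0.05. Of 37 proteasome subunit genes 0 passed in either tool, 0 were higher and 4 lower at an unadjusted p under 0.05 (4.21% and 6.57% over all genes), and 30 had values below 0 (9911 of 18941 over all genes), with a median of -0.24. Without that pool the median was -0.09 and no member had such a p. Cytosolic ribosomal protein genes (79) and splicing factor genes (62) had medians of 0.05 each. None of them passed in either tool (0 calls), while 1 was higher and 1 lower of the former and 6 higher and 2 lower of the latter at an unadjusted p under 0.05 (4.21% and 6.57% over all genes). The splicing factor genes had 1 higher and 3 lower without ZT6 replicate C. Ribosomal protein genes have many near-identical pseudogenes, so their counts are uncertain.

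Mitochondrially encoded transcripts lay above 0. All 8 tested members had log2 differences above 0, with a median of 0.70, and all ZT6 pools lay above all ZT10 pools for 6 of them (5.5% over all genes), while 0 passed in edgeR (smallest q = 0.369) 5 had an unadjusted p under 0.05 (4.21% over all genes) and DESeq2 called 1. Without ZT6 replicate C the median was 0.67. *mt-Cytb*, the cytochrome b subunit of complex III, stood at 10473, 10358 and 9262 CPM at ZT6 and at 6626, 4819 and 7590 CPM at ZT10 (0.66 ± 0.28, q = 0.418). *mt-Nd4l*, a subunit of complex I, stood at 4732, 4544 and 5670 CPM against 2940, 2339 and 3689 CPM (0.74 ± 0.30, q = 0.409), while the second deposited table gave it a log2 difference of 3.57 (q = 0.488). All mitochondrially encoded genes of the count table together took 8.69% to 10.3% of all reads at ZT6 and 6.57% to 8.16% at ZT10. These shares do not overlap (exact permutation test, two-sided p = 0.1). Of 13 listed genes 8 were in the count table, and they were the smaller part of that share. They summed to 24578 to 26814 CPM at ZT6 and 13851 to 21674 CPM at ZT10. The rest came from mitochondrial genes outside the list. The 77 nuclear genes for the respiratory chain and for ATP synthase had a median of -0.06, with all ZT6 pools above for 18 and below for 2 (5.5% and 6.87% over all genes). In either tool 0 passed, and 3 were higher and 1 lower at an unadjusted p under 0.05 (4.21% and 6.57% over all genes), or 1 and 0 without ZT6 replicate C. *Cox7b*, a subunit of complex IV, stood at 715, 804 and 1006 CPM against 531, 551 and 600 CPM (0.59 ± 0.19, q = 0.351). Nuclear copies of mitochondrial genes make the mitochondrial counts uncertain.

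**Figure D5:**
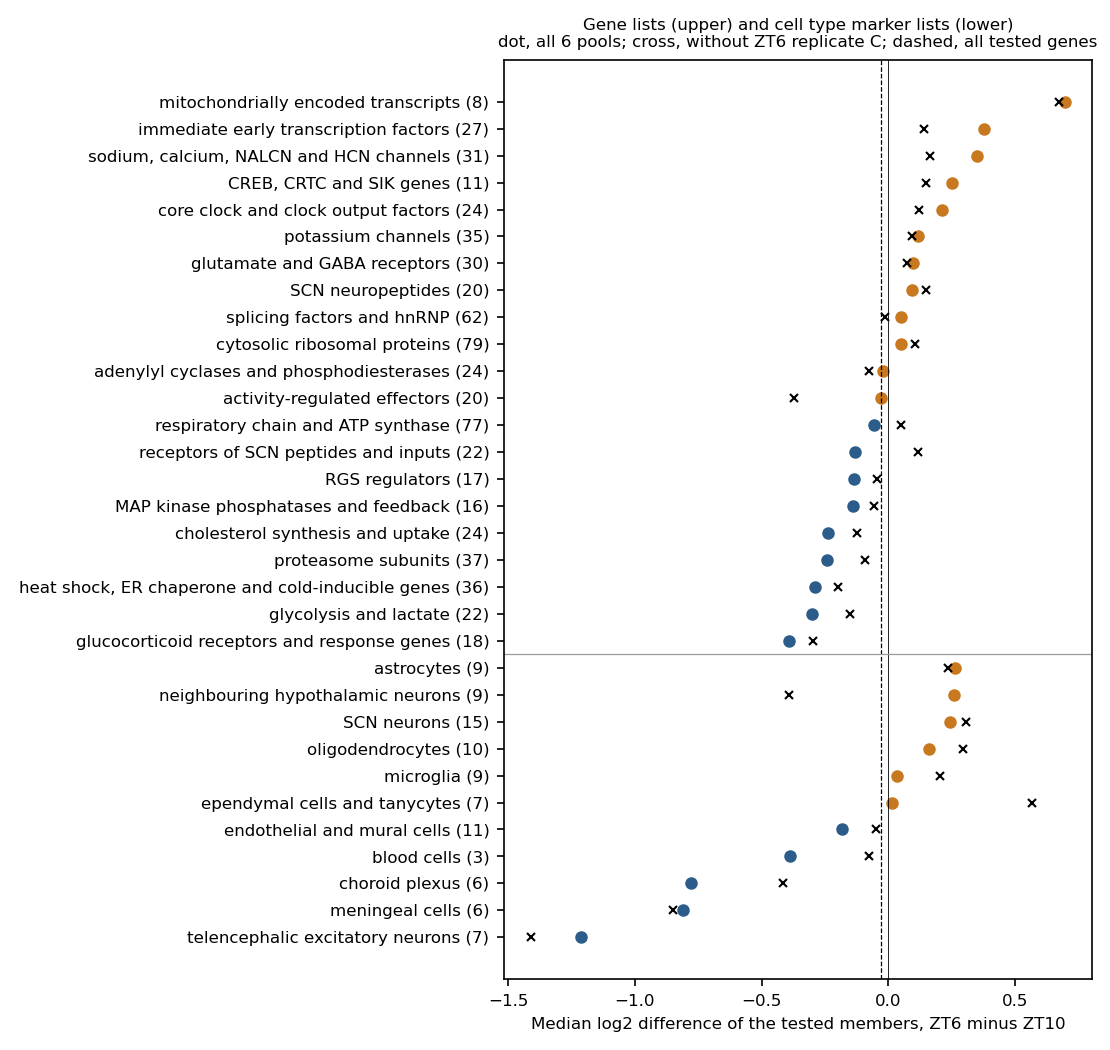
Median log2 difference between ZT6 and ZT10 of the tested members of each list (number in brackets), with pathway lists above the grey line and cell type marker lists below it. Dots use all pools, crosses leave out ZT6 replicate C, and the dashed line is the median of all tested genes, -0.03; the telencephalic excitatory neurons (-1.21) have the lowest median and the mitochondrially encoded transcripts (0.70) the highest.

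Marker genes of cell types were used to look at what each pool held. Of 15 SCN neuron markers, all ZT6 pools lay above all ZT10 pools for 7 and below for 0 (background 5.5% and 6.87%), with a median log2 difference of 0.24, and 1 passed in edgeR (*Rgs16*). DESeq2 called 4 of them higher, and edgeR 0 without ZT6 replicate C, where 4 were higher and 0 lower at an unadjusted p under 0.05. Their summed level was 5962 to 6714 CPM at ZT6 and 4988 to 5486 CPM at ZT10. *Zfhx3*, a transcription factor gene of SCN neurons, stood at 405, 456 and 566 CPM against 306, 194 and 315 CPM (0.81 ± 0.23, q = 0.298 in edgeR, 0.0472 in DESeq2). The list shares *Vip*, *Nms*, *Rorb*, *Prok2*, *Avp*, *Grp*, *Rgs16* and some receptors with the lists above, so it is no separate set of genes.

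The 7 markers of telencephalic excitatory neurons all had log2 differences below 0, with a median of -1.21, and all ZT10 pools lay above all ZT6 pools for 5 (6.87% over all genes). *Tbr1*, a cortical transcription factor gene, stood at 1.52, 2.08 and 0.805 CPM at ZT6 and at 4.90, 5.08 and 13.5 CPM at ZT10 (-2.41 ± 0.63, q = 0.257 in edgeR, 0.0107 in DESeq2). *Slc17a7*, the vesicular glutamate transporter gene of cortical neurons, stood at 9.50, 7.39 and 12.2 CPM against 18.1, 19.4 and 29.97 CPM. Their summed level overlapped between the timepoints, at 130 to 205 CPM and 159 to 320 CPM, with *Camk2a*, which SCN tissue also expresses, making up most of the sum. Markers of neighbouring hypothalamic neurons, meninges and choroid plexus were present at low or uneven levels. *Oxt*, the oxytocin gene of the paraventricular and supraoptic nuclei, stood at 26.5 CPM in ZT6 replicate B and between 1.43 and 4.64 CPM in the other 5 pools. *Ttr*, the transthyretin gene of the choroid plexus, stood at 2679 CPM in ZT6 replicate B and at 2922 and 3313 CPM in ZT10 replicates A and C, but between 2.13 and 62.7 CPM in the other 3 pools. High and low values of *Ttr* occurred at both timepoints. The summed levels of astrocyte markers were 2438 to 2710 CPM at ZT6 and 2062 to 2429 CPM at ZT10, those of oligodendrocytes 1388 to 3182 and 1743 to 2130 CPM, and those of endothelial and mural cells 221 to 353 and 302 to 427 CPM. The part of other cell types in the results above was not tested.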

How the data were processed

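RNA of laser-captured SCN from 6 pools was analysed, 3 at ZT6 and 3 at ZT10. The authors aligned reads with GSNAP to mm10/GRCm38 and counted them with HTSeq 0.5.4p1 (per the methods and the submitters' processing notes), and the deposited table gives raw read counts per gene with the 3 lanes of a pool combined. A second table, deposited by the authors as normalized signal (each column scaled by its own size factor), gave whole reads for 100% of its values, within 0.1 of a step, and served as an alternative: its ZT6 and ZT10 columns differ from the count table. A gene entered the test with reads in more than 6 of 18 pools. Tests used edgeR 4.0.16 (R 4.3.3; TMM, quasi-likelihood F-test of ZT6 minus ZT10 in one fit to 18 pools, Benjamini-Hochberg). DESeq2 1.42.0 was an alternative. The SE of a log2 difference is its absolute value divided by the square root of the F statistic of that fit, not a standard error over the 6 pools alone. CPM are TMM-scaled, with a prior count of 2 added for log2 values in the PCA.

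Symbols and positions come from GENCODE M21 (GRCm38), which held 97.4% of the identifiers. The genes named are those past the threshold; up to 8 per direction with an unadjusted p under 0.05, at least 10 CPM at the higher timepoint and no overlap; and, of each list, up to 4 with the smallest p, with all clock and neuropeptide genes. The comparison, lists and rules were chosen with earlier results of these data known. Other alternatives were other scalings and filters, only 6 pools, the replicate letter as a block, and leaving out each pool. No p was adjusted over a list alone. List members without values in the text are covered by the counts. One gene among the highest differences is not reported here.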

Additional observations from a re-analysis of the deposited data

How the results depend on the processing

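The count of 9 genes depended on the tool and the pools more than on the scaling. DESeq2's size factors and upper-quartile normalization each gave the same 9 genes, and the recovered reads gave 11, of which 8 were shared. DESeq2 in place of edgeR gave 248 (78 higher at ZT6), all 9 among them, with 43 whose pools overlap. A filter of 10 counts in each pool gave 4, and no filter beyond 1 read in any pool gave 16. With only the 6 pools in the fit edgeR gave 0, although 1225 genes had an unadjusted p under 0.05, and DESeq2, run on these 6 pools after seeing the data, gave 35. Calls of DESeq2 with 18 pools that it lost with 6 included *Dapp1* (q = 0.0633 with 6), *Tsc22d3* (0.0853), *Ptgs2* (0.088) and *Aldh1l2* (0.129). Others were *Rgs14* (0.227), *Pdia4* (0.307) and *Kcnn3* (0.376), while *Bhlhe41*, *Dbp*, *Rorb* and *Prok2* passed in both fits. Leaving out each of the 18 pools in turn gave from 2 (without ZT6 replicate C) to 50 (without ZT6 replicate A), with 20 without ZT18 replicate C, 5 without ZT6 replicate B, 5 without ZT10 replicate A and 4 without either other ZT10 pool. The replicate block gave 2, *AU021092* and *Htr1a*. The letters do not pair the pools: deviations of ZT6 and ZT10 pools with one letter correlated at 0.01, -0.07 and 0.17 for A, B and C. The cause of these changes was not tested. Over 238 refits of the 9 genes 64 missed the threshold. None changed sign, which says little, since the pools of these genes did not overlap. Of 864 list medians under the alternatives, 13 moved by more than the spread of the pools, among them the choroid plexus markers, from -0.78 to -4.89 without ZT6 replicate B. Of these 13, the median turned sign for RGS genes (0.05 without ZT10 replicate B), peptide receptors (0.12 without ZT6 replicate C) and potassium channels (-0.11 without ZT6 replicate A). Without ZT6 replicate C it also turned, by less than the spread of the pools, for neighbouring hypothalamic neurons (-0.39), the respiratory chain (0.05) and splicing factors (-0.01). The ratio of the median distance between timepoints to that within them in the PCA was 0.938, and 1.45 over all genes. Errors were widest for the genes under 1 CPM, whose median SE was 1.65 on the log2 scale, against 0.20 at 100 CPM or more.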

Other observations

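The genes with the smallest q in DESeq2 were not those of edgeR. *Actg2*, *Gm10722* and *Gm10801* had reads, among the 6 pools, only in ZT10 replicate A, at 5.53, 8.83 and 4.42 CPM, and *Rpe65* and *Clec10a* only in ZT6 replicate C, at 6.29 and 4.73 CPM, with q between 1.61e-21 and 2.11e-15 in DESeq2 and between 0.332 and 0.388 in edgeR. Of the 248 genes past the threshold in DESeq2, 7 had reads in 1 of the 6 pools, and 95 had a mean of at least 10 CPM at the higher timepoint. Of those 95 genes, all ZT6 pools lay above all ZT10 pools for 54 and below for 37.

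The recovered reads gave 3 calls that the count table did not, all higher at ZT10: *Serpind1*, *Rtl4* and *A930017M01Rik* (q = 0.0378, 0.035 and 0.035 with edgeR). *Serpind1*, the heparin cofactor II gene, stood in the count table at 0.260, 0.0474 and 0 CPM at ZT6 and at 5.63, 5.29 and 6.42 CPM at ZT10 (q = 0.157), and its means were 3.67 to 8.53 CPM at the other 4 timepoints. The recovered reads also held 2171 tested genes that are not in the count table. Of these 0 passed (smallest q = 0.151, edgeR), with 91 higher and 133 lower at ZT6 at an unadjusted p under 0.05. *Spin2c* stood among them at 4.43, 6.16 and 3.84 CPM at ZT6 and at 9.07, 14.4 and 18.5 CPM at ZT10.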
